A study of Mus musculus with 16 samples.

Results

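Microvilli of the intestinal brush border are built by a small set of structural proteins, and 10 of their genes are described here across 4 groups of jejunal organoids. The genes were picked by name for the actin core of the microvillus, its tip and its adhesion links: Cdhr2, Cdhr5, Ush1c, Myo7b, Vil1, Espn, Pls1, Eps8, Myo1a and Ezr. Rows were matched by gene symbol, and all 10 were found among the 20790 genes listed at day 2 and the 20658 listed at day 4, and so among the 19964 genes listed on both days. All 10 also passed the filter on low counts in every comparison.

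Poly(A) RNA was sequenced from cultures of mouse jejunal epithelium on a C57BL/6 background. Every library, controls included, came from organoids with the genotype Villin-CreERT2; Hnf4aflox/flox. CreERT2 is a recombinase that works only when 4-hydroxytamoxifen (4OHT) binds it, and loxP sites flank part of Hnf4a, a gene for a nuclear receptor active in gut epithelium. The 4OHT day 2 and 4OHT day 4 organoids were given 0.5 µM 4OHT for 24 h to delete Hnf4a and were split afterwards, while the DMSO day 2 and DMSO day 4 organoids received the vehicle DMSO. Each of the 4 groups has 4 libraries. The protocol in the labels names a harvest at day 4 and says nothing separate of day 2, so the days are used as the labels give them. The recombinase is driven by the promoter of villin, the gene Vil1, which is itself 1 of the 10 genes, so recombination depends on cells in which that promoter is active. Among the 16 libraries none received 4OHT without floxed alleles, so deletion of Hnf4a cannot be told apart from 4OHT or active recombinase as such. The labels do not tie replicates to separate cultures or mice, and p-values here reflect only how far these libraries vary, some or all of which may be technical. Organoids are mixtures of cell types, and in such bulk RNA fewer cells of a type and less RNA per cell cannot be told apart.

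A microvillus is a finger of plasma membrane held up by a bundle of parallel actin filaments, and enterocytes pack them densely side by side into the brush border that absorbs nutrients. Villin, espin and plastin bundle the filaments, EPS8 sits at the tips, and myosin 1a and ezrin tie the bundle to the surrounding membrane. Neighbouring microvilli are drawn into tight clusters by thread-like links between their tips, formed by the protocadherins CDHR2 and CDHR5 and anchored inside the cell by the scaffold harmonin (Ush1c) and the motor myosin 7b (Myo7b).

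HNF4 receptors are known to bind DNA sites related to CAAAGTCCA, so the promoters of the genes were read, and the 4 on which the results below turn most are printed. Cdhr2 and Cdhr5 are the adhesion partners whose 4OHT difference was not the same on both days, by a test that only just passed. Ezr is the gene that was higher in 4OHT on both days, and the promoter of Vil1 drives the recombinase. The stretches are RefSeq sequence of build GRCm38.p6, given 5′ to 3′ on the strand of the gene, and run from 250 bases before the RefSeq start to the last base before the gene in GENCODE M21. They lie at chr13:54701213-54701460 on the plus strand for Cdhr2, chr7:141276787-141277036 on the minus strand for Cdhr5, chr17:6782785-6783030 on the minus strand for Ezr and chr1:74409134-74409375 on the plus strand for Vil1. Capitals mark a 7-letter match as explained in the next paragraph.
Cdhr2: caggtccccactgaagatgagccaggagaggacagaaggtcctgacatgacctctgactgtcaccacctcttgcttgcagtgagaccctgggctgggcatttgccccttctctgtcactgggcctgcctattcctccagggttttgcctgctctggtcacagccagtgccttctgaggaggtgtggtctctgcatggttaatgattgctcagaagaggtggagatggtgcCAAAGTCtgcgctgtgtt
Cdhr5: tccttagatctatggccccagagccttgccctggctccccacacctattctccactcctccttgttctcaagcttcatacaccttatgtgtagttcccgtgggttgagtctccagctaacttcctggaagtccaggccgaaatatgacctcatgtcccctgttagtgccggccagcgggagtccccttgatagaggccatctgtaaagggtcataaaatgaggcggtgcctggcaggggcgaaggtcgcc
Ezr: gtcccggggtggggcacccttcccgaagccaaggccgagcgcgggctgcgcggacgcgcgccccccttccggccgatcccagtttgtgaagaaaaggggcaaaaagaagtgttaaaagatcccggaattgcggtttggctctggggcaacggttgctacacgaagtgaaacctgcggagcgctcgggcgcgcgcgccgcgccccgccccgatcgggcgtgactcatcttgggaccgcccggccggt
Vil1: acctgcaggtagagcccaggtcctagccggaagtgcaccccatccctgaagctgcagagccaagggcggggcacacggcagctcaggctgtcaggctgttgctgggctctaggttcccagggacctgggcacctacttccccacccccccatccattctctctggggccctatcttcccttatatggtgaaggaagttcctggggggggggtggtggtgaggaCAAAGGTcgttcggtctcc

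Promoter windows of 300 bases, from 250 before to 50 after a RefSeq start, were found for 8 of the genes, with 3 windows for Espn and 10 in all. On both strands were searched the HNF4-type sequences CAAAGTCCA and CAAAGTTCA, the general nuclear receptor repeat CAAAGGTCA, and the CDX-type sequence TTTATGG with its variant of the same type, TTTATTG. These are searched separately, and none holds another. The first 3 occur in 0.475%, 0.39% and 0.478% of the 32851 windows of all genes, and in 0 of these 10. TTTATGG occurs in 2.75% of all windows and in 1 window of Espn, and TTTATTG in 4.6% and in 0. After no full 9-letter match was seen, the first 7 letters of each were searched as well, namely CAAAGTC of the first HNF4-type sequence, then CAAAGTT of the second, and CAAAGGT of the general repeat. At least 1 of them lies in 11.8% of all windows and in 3 of these 10. Cdhr2 has CAAAGTC 20 to 14 bases before its RefSeq start, Vil1 has CAAAGGT 27 to 21 bases before its start, and the third window with a match is 1 of the 3 for Espn. The printed stretches of Cdhr5 and Ezr hold none. A match of letters describes the sequence and does not show a binding site, and its absence from a window of this length says nothing about the receptor.

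In the GRCm38 build, with GENCODE M21 gene bounds, the adhesion genes lie at chr13:54701461-54736662 (Cdhr2), chr7:141269083-141276786 (Cdhr5), chr7:46195350-46238503 (Ush1c) and chr18:31959234-32036961 (Myo7b). The actin core genes lie at chr1:74409376-74435559 (Vil1), chr4:152120331-152152371 (Espn), chr9:95752642-95845311 (Pls1) and chr6:137477245-137654876 (Eps8), and the membrane link genes at chr10:127705170-127720940 (Myo1a) and chr17:6738041-6782784 (Ezr). Cdhr2, Vil1 and Myo1a are on the plus strand and the rest on the minus strand. Exons of 3 of them overlap a gene on the other strand, by 120 bases for Ush1c, 49 for Vil1 and 4 for Ezr, and without the strand setting of the counting such reads cannot be told apart.

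Library totals ranged from 63791712 to 93322956 counts, and the 10 genes had between 1586 and 87639 counts each in a library, so counting error is small beside the spread between libraries. Hnf4a, the gene targeted by the deletion, averaged 509 ± 22.2 CPM in 4OHT day 2 (CPM are counts scaled to a common library size, here by TMM; SD, n = 4) and 1018 ± 30.7 CPM in DMSO day 2. At day 4 it averaged 471 ± 16.1 CPM in 4OHT and 970.1 ± 6.95 CPM in DMSO, and 4OHT lay below DMSO in every library of both days. Its log2 fold change was -0.99 ± 0.05 at day 2 (SE; edgeR adjusted p = 8.25e-08) and -1.04 ± 0.05 at day 4 (edgeR adjusted p = 1.14e-06). Hnf4a RNA was thus still counted in 4OHT, at 0.503 times the DMSO level at day 2 and 0.486 times at day 4. Counts per gene do not tell in what share of cells the gene was deleted. The sum of 12 enterocyte markers was 6853 to 9739 CPM in 4OHT day 2, 9940.3 to 13572 CPM in DMSO day 2, 13547 to 19043 CPM in 4OHT day 4 and 15212 to 16529 CPM in DMSO day 4. Of these markers, 8 were lower and 0 higher in 4OHT at day 2, and 3 were higher and 0 lower at day 4. Goblet markers were higher in 4OHT for 6 of 8 on both days (summed 7397 to 9506 CPM in 4OHT day 2 and 4913 to 5665 CPM in DMSO day 2, and 7335 to 9299 CPM in 4OHT day 4 and 4022 to 5202 CPM in DMSO day 4), and stem cell markers were lower for 5 of 6 at day 2 and 6 of 6 at day 4. Paneth markers were lower for 4 of 8 and higher for 1 of 8 on each day. Beside these counts, 16.9% of all genes tested were higher and 14.3% lower in 4OHT at day 2. At day 4, 13.7% of all genes tested were higher and 11.1% lower. Col1a2, Col3a1, Dcn and Acta2 of the 7 stromal markers and Cdh5 of the 6 immune or endothelial markers were not in both tables, and the remaining ones summed to at most 9.55 and 0.975 CPM in any library. Over 9690 genes with a mean log2 CPM above 3, 4OHT day 4 replicate 4 lay farthest of the 16 libraries from the other 3 of its group, by a root-mean-square log2 difference of 0.22 against 0.07 to 0.19 for the rest.

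**Figure D1:**
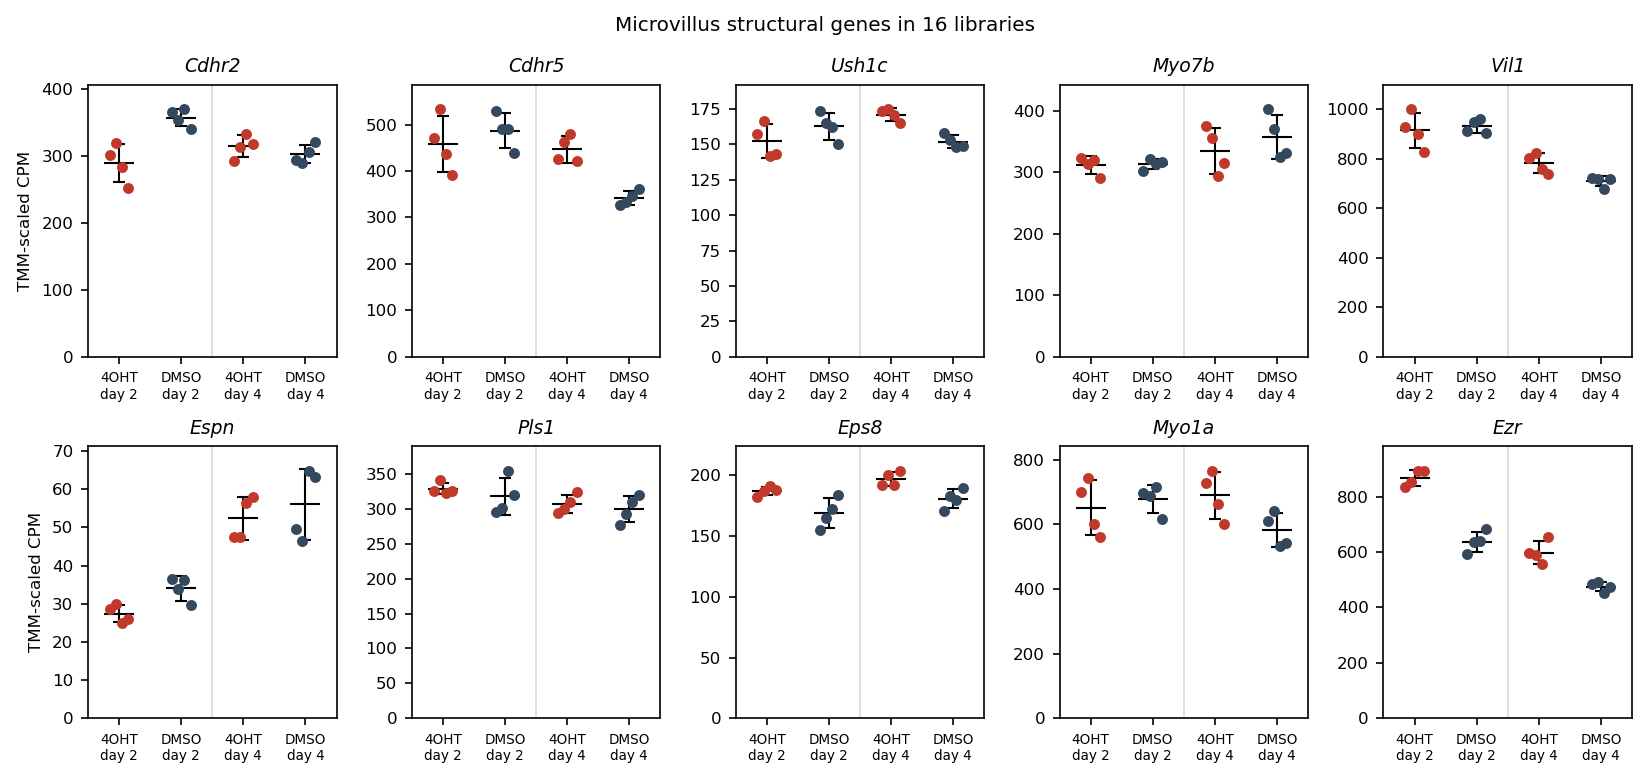
TMM-scaled CPM (linear axis from 0) of the 10 genes in 4OHT (red) and DMSO (dark) libraries at day 2 and day 4. Points are libraries in replicate order, and bars give the mean and SD of 4 libraries; Ezr stands higher in 4OHT on both days, and Espn stands higher at day 4 in both treatments.

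Per kilobase of exon, Vil1 and Ezr were the most abundant of the 10 in 4OHT day 2 and DMSO day 2, and Espn was the least abundant in every group. In RPKM, which is the TMM-scaled CPM divided by the GENCODE exon length in kilobases, Ezr averaged 264 ± 8.89 in 4OHT day 2 and 194 ± 11.2 in DMSO day 2 (SD, n = 4). Vil1 averaged 257 ± 20.2 RPKM in 4OHT day 2 and 262 ± 7.60 RPKM in DMSO day 2. So the libraries of Ezr and Vil1 overlapped in 4OHT day 2, whereas in DMSO day 2 every library had more Vil1 than any had Ezr. Below them in DMSO day 2 came Myo1a at 183 ± 11.6 RPKM and Cdhr5 at 178 ± 13.7 RPKM, whose ranges overlapped with each other, and that of Myo1a also with Ezr. Cdhr2 at 86.5 ± 3.20 RPKM and Pls1 at 81.6 ± 6.85 RPKM also overlapped. Then followed Myo7b at 47.3 ± 1.28, Ush1c at 42.2 ± 2.49, Eps8 at 13.7 ± 1.004 and Espn at 4.12 ± 0.390 RPKM, each apart from its neighbours. This order depends on the length used, which joins all annotated exons: 12355 bases for Eps8 and 3849 for Ush1c. Before division by length, Eps8 averaged 169 ± 12.4 CPM and Ush1c 163 ± 9.59 CPM in DMSO day 2. In 4OHT day 2 Myo1a at 175 ± 22.7 RPKM and Cdhr5 at 167 ± 21.8 RPKM overlapped, whereas Pls1 at 84.5 ± 2.14 RPKM lay above Cdhr2 at 70.0 ± 6.84 RPKM in every library.

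At day 4 the order was led by Vil1 alone, at 220.0 ± 11.2 RPKM in 4OHT and 199 ± 5.77 RPKM in DMSO. Myo1a came next with 185 ± 19.5 RPKM in 4OHT day 4 and 157 ± 14.3 RPKM in DMSO day 4, and overlapped with Ezr at 182 ± 12.4 RPKM in 4OHT and 144 ± 5.36 RPKM in DMSO. Cdhr5 overlapped with Ezr in 4OHT day 4 but lay below it in every DMSO day 4 library, at 163 ± 10.6 RPKM in 4OHT and 125 ± 5.54 RPKM in DMSO. Pls1 and Cdhr2 overlapped in both groups of day 4. Myo7b and Ush1c overlapped in 4OHT day 4 and were apart in DMSO day 4, and Eps8 and Espn closed the order in both. Of all counts in a library, the 10 genes together took 0.387% to 0.436% in 4OHT day 2 and 0.397% to 0.416% in DMSO day 2, which overlap. At day 4 they took 0.374% to 0.411% in 4OHT and 0.340% to 0.363% in DMSO, with every 4OHT library above every DMSO library.

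At day 2, 4OHT organoids had more Ezr and less Cdhr2 and Espn RNA than DMSO organoids, and the villin, plastin, harmonin and class 1 and 7 myosin genes did not pass the test. Of the 10 genes, 2 were higher and 2 lower by edgeR's quasi-likelihood test at a Benjamini-Hochberg adjusted p below 0.05, while 31.1% of all genes tested passed in either direction, 16.9% higher and 14.3% lower. The median log2 fold change of the 10 was -0.03, against -0.0027 for all genes tested. The groups did not overlap for 2 of the 10, Ezr above and Cdhr2 below, against 32.3% of all genes, 16.6% above and 15.8% below. In the same 4OHT libraries 8 of 12 enterocyte markers and 5 of 6 stem cell markers were lower and 6 of 8 goblet markers higher, and their part in these differences was not tested.

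Among the adhesion genes, Cdhr2 was the one that changed at day 2. It encodes the longer protocadherin of the tip links, and measured 301, 319, 283 and 253 CPM in 4OHT day 2 and 365, 354, 369 and 339.9 CPM in DMSO day 2 (replicates 1 to 4). Every 4OHT library lay below every DMSO library, and the log2 fold change was -0.29 ± 0.07 (SE; edgeR adjusted p = 0.00563). Its partner Cdhr5 measured 471, 533, 436 and 391 CPM in 4OHT day 2 and 529, 490.1, 491 and 438 CPM in DMSO day 2. The Cdhr5 groups overlapped, and replicate 2 of 4OHT was the highest of all 8 libraries (log2 -0.08 ± 0.09, edgeR adjusted p = 0.538). Ush1c, the harmonin scaffold gene, measured 157, 167, 142 and 143 CPM in 4OHT day 2 and 173, 165, 162 and 150.1 CPM in DMSO day 2, overlapping as well (log2 -0.09 ± 0.06, edgeR adjusted p = 0.318). Myo7b, the motor gene, averaged 312 ± 14.1 CPM in 4OHT day 2 and 313 ± 8.50 CPM in DMSO day 2 (edgeR adjusted p = 0.962).

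In the actin core at day 2, Espn was lower in 4OHT and Vil1 and Pls1 did not pass. Espn, whose espin product bundles filaments tightly, measured 28.6, 29.9, 25.1 and 26.0 CPM in 4OHT day 2 and 36.5, 33.8, 36.3 and 29.6 CPM in DMSO day 2. DMSO replicate 4 lay just inside the 4OHT range, and the other 3 DMSO libraries above it (log2 -0.30 ± 0.08, edgeR adjusted p = 0.0104). Eps8, the tip gene, was at 182, 187, 191 and 188 CPM in 4OHT day 2 and at 154, 165, 173 and 184 CPM in DMSO day 2. Only DMSO replicate 4 reached the 4OHT range. The Eps8 log2 fold change of 0.16 ± 0.05 just passed (edgeR adjusted p = 0.0427); the call was lost when any 1 of 7 of the 8 libraries was left out (edgeR adjusted p = 0.0588 to 0.131), and was kept without DMSO day 2 replicate 4 (0.0117). It was also lost with no filter on low counts (edgeR adjusted p = 0.0647). Vil1 averaged 914 ± 71.8 CPM in 4OHT day 2 and 929.9 ± 27.0 CPM in DMSO day 2, a log2 difference of -0.01 ± 0.06 (edgeR adjusted p = 0.882). Pls1, for plastin 1, averaged 329 ± 8.31 CPM in 4OHT day 2 and 318 ± 26.6 CPM in DMSO day 2 (log2 0.06 ± 0.06, edgeR adjusted p = 0.469).

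Of the membrane link genes at day 2, Ezr was higher in 4OHT and Myo1a did not pass. Ezr, for the linker ezrin, measured 835, 852, 893 and 892 CPM in 4OHT day 2 and 591, 636, 639 and 681 CPM in DMSO day 2. The lowest 4OHT library stood well above the highest DMSO library. The log2 fold change was 0.46 ± 0.05, or 1.37-fold (edgeR adjusted p = 5.10e-05). Myo1a, the motor that bridges core and membrane along the shaft, measured 700.4, 742, 600.2 and 561 CPM in 4OHT day 2 and 697, 686, 714 and 616 CPM in DMSO day 2, with overlap (log2 -0.05 ± 0.09, edgeR adjusted p = 0.71).

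At day 4, in a test that does not pair libraries, Cdhr5, Ezr and Ush1c were higher in 4OHT organoids than in DMSO organoids. In that test 0 of the 10 genes passed as lower. The count of 3 higher and 0 lower stands against 24.7% of all genes tested that passed in either direction, 13.7% higher and 11.1% lower. The median log2 fold change of the 10 was 0.14, against -0.007 for all genes tested, and 8 of the 10 lay above 0. For 5 of the 10, Cdhr5, Ush1c, Vil1, Eps8 and Ezr, every 4OHT library lay above every DMSO library, where groups did not overlap for 28.1% of all genes, 14.6% above and 13.5% below. Same-numbered 4OHT and DMSO libraries deviated together at day 4, and a fit that holds replicate number as a block called 6 of the 10 higher and 1 lower. That fit also called more genes in all, 45.0% of those tested (22.8% higher and 22.2% lower). DESeq2 called 6 higher and 0 lower, with 28.6% of all genes called (15.4% higher and 13.2% lower). In the same 4OHT libraries 6 of 8 goblet markers and 3 of 12 enterocyte markers were higher and 6 of 6 stem cell markers lower, and their part in these differences was not tested.

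**Figure D2:**
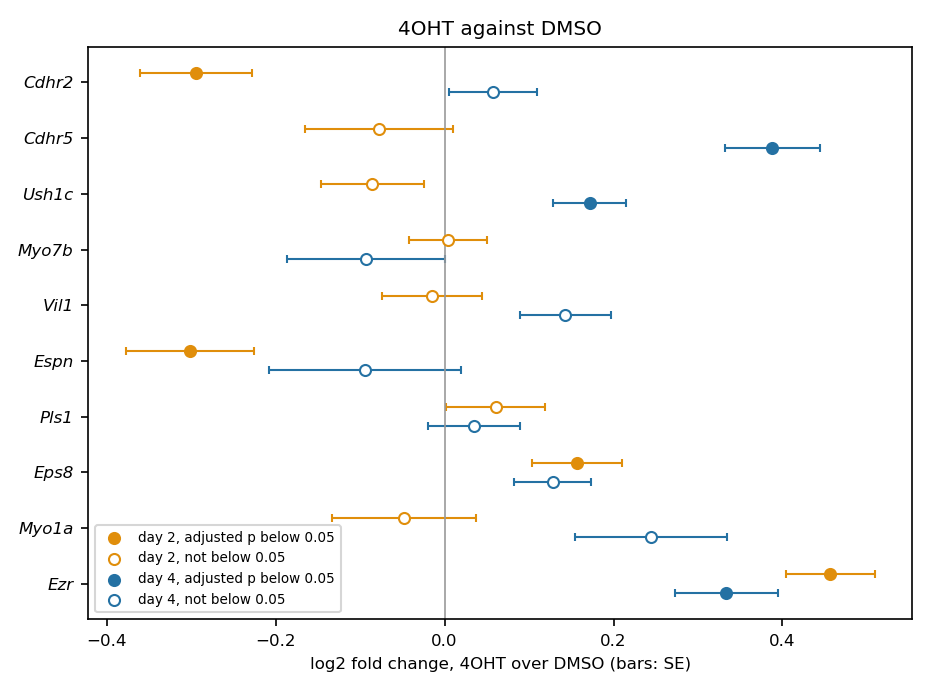
Log2 fold change of the 10 genes in 4OHT over DMSO (horizontal axis) at day 2 (orange) and day 4 (blue), with bars for SE. Filled points have an edgeR adjusted p below 0.05: Cdhr2, Espn, Eps8 and Ezr at day 2, and Cdhr5, Ush1c and Ezr at day 4.

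Cdhr5 had the largest difference of the 10 at day 4. It measured 425, 463, 480.2 and 421 CPM in 4OHT day 4 and 327, 334, 346 and 362 CPM in DMSO day 4. The 2 groups were well apart, with a log2 fold change of 0.39 ± 0.06, or 1.31-fold (edgeR adjusted p = 9.01e-04). Cdhr2 measured 293, 314, 333 and 318 CPM in 4OHT day 4 and 294, 289.8, 306 and 320.4 CPM in DMSO day 4, so the partner gene that was lower at day 2 now overlapped between treatments (log2 0.06 ± 0.05, edgeR adjusted p = 0.466). Ush1c measured 174, 175, 171 and 165 CPM in 4OHT day 4 and 158, 153, 148 and 149 CPM in DMSO day 4. Its groups were apart by a small margin, and the log2 fold change was 0.17 ± 0.04 (edgeR adjusted p = 0.0152). The Ush1c call was lost without DMSO day 4 replicate 3 (edgeR adjusted p = 0.0546) and without DMSO day 4 replicate 4 (edgeR adjusted p = 0.0543).

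Myo7b was lower in 4OHT within each numbered pair of day 4. It measured 375, 355, 293 and 315 CPM in 4OHT day 4 and 402, 371, 325 and 331 CPM in DMSO day 4. Both groups spread widely and overlapped, with replicates 1 and 2 high in each, and the test without a block gave log2 -0.09 ± 0.09 (edgeR adjusted p = 0.517). Within all 4 numbered pairs the 4OHT library was the lower one, by log2 -0.15 to -0.06, and with the block Myo7b passed as lower (edgeR adjusted p = 0.0338).

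The actin core genes showed small differences at day 4. Vil1 measured 804, 824, 760.0 and 736 CPM in 4OHT day 4 and 721, 718, 678 and 716 CPM in DMSO day 4, and Eps8 measured 192, 199.9, 192 and 204 CPM in 4OHT day 4 and 171, 183, 179 and 189 CPM in DMSO day 4. In both genes the groups were just apart. The log2 fold changes were 0.14 ± 0.05 for Vil1 (edgeR adjusted p = 0.0768) and 0.13 ± 0.05 for Eps8 (edgeR adjusted p = 0.064). With the block Vil1 passed at an edgeR adjusted p of 0.00773 and Eps8 at 0.00433, and by DESeq2 Vil1 passed at 0.0288 and Eps8 at 0.0363. Eps8 also passed when genes needed 1 CPM in 4 libraries to enter (edgeR adjusted p = 0.0428). Vil1 also passed without 4OHT day 4 replicate 4, its lowest 4OHT library (edgeR adjusted p = 0.0354). Espn measured 47.4, 47.4, 56.4 and 58.0 CPM in 4OHT day 4 and 49.6, 46.5, 64.8 and 63.2 CPM in DMSO day 4, so replicates 3 and 4 were high in both treatments (log2 -0.09 ± 0.11, edgeR adjusted p = 0.596). Pls1 averaged 306 ± 12.8 CPM in 4OHT day 4 and 299.8 ± 18.8 CPM in DMSO day 4 (log2 0.03 ± 0.05, edgeR adjusted p = 0.688).

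Ezr was again higher among the membrane link genes at day 4. It measured 595, 589, 556 and 654 CPM in 4OHT day 4 and 484, 493, 452 and 473 CPM in DMSO day 4, without overlap. The log2 fold change was 0.33 ± 0.06, or 1.26-fold (edgeR adjusted p = 0.00307), and 4OHT replicate 4 was the highest library. Myo1a measured 727, 765, 663 and 601 CPM in 4OHT day 4 and 610.0, 642, 532 and 543 CPM in DMSO day 4. These groups overlapped, and the log2 fold change of 0.24 ± 0.09 did not pass (edgeR adjusted p = 0.0727). Each numbered pair had more Myo1a in 4OHT, by log2 0.15 to 0.32, and Myo1a passed with the block (edgeR adjusted p = 2.86e-04) and by DESeq2 (adjusted p = 0.0405). It also passed in edgeR without 4OHT day 4 replicate 4 (adjusted p = 0.0182) and without DMSO day 4 replicate 2 (adjusted p = 0.0468).

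**Figure D3:**
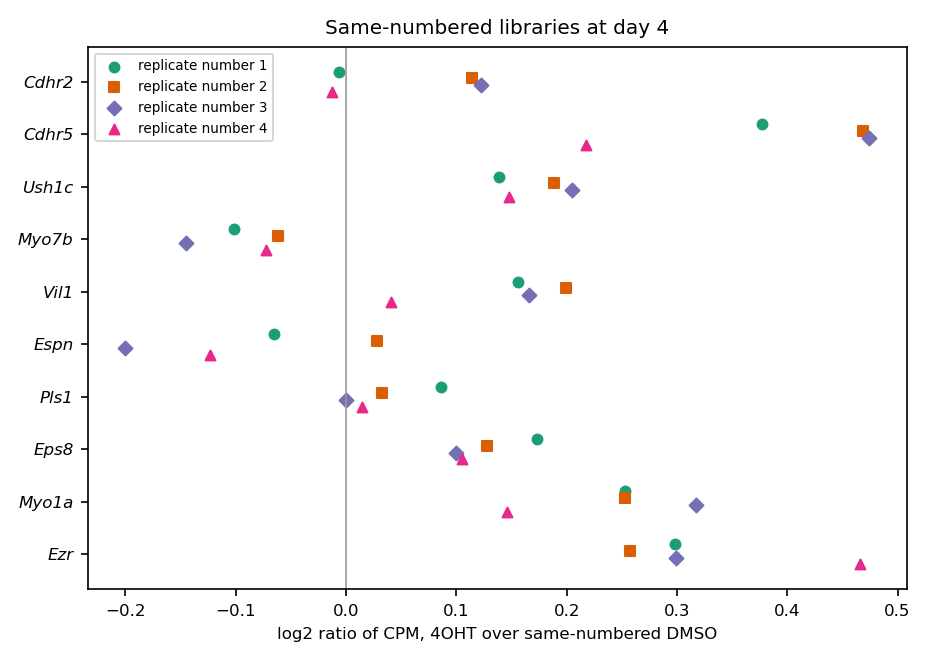
Log2 ratio of CPM in each 4OHT day 4 library over the DMSO day 4 library with the same replicate number (horizontal axis) for the 10 genes. All 4 ratios lie above 0 for Cdhr5, Ush1c, Vil1, Pls1, Eps8, Myo1a and Ezr, with the lowest of Pls1 at 0.0003, and all 4 lie below 0 for Myo7b.

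The 4OHT differences of day 4 and day 2 were set against each other in a fit over all 16 libraries. Cdhr5 and Cdhr2, the paired protocadherins, were the 2 of the 10 whose 4OHT difference was higher at day 4 than at day 2 by the interaction term, and 0 were lower. In that test 1.68% of all genes passed, 1.2% higher and 0.476% lower. The difference between the days was log2 0.47 ± 0.11 for Cdhr5 (edgeR adjusted p = 0.0402) and 0.36 ± 0.09 for Cdhr2 (edgeR adjusted p = 0.0438). All 12 enterocyte markers also had an interaction above 0 (median log2 0.65, lowest 0.40, 1 called), as did all 8 goblet markers (median log2 0.28, 3 called), and their part in the values of Cdhr5 and Cdhr2 was not tested. Both genes sat close to the threshold. The Cdhr5 call was lost in 11 of the 16 fits that left out 1 library (edgeR adjusted p up to 0.101): those without 4OHT day 2 replicates 1, 3 and 4, 4OHT day 4 replicate 3, DMSO day 2 replicates 1, 2 and 3, and any DMSO day 4 replicate. The Cdhr2 call was lost in those 11 fits and without 4OHT day 4 replicate 4 (edgeR adjusted p up to 0.117), and it was also lost with DESeq2 size factors in edgeR (adjusted p = 0.0501).

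For the other 8 genes the interaction did not pass. It was log2 0.26 ± 0.08 for Ush1c (edgeR adjusted p = 0.0901), 0.30 ± 0.13 for Myo1a (edgeR adjusted p = 0.244) and -0.12 ± 0.08 for Ezr (edgeR adjusted p = 0.463). Ush1c passed without 4OHT day 2 replicate 2 (edgeR adjusted p = 0.0282), without DMSO day 2 replicate 4 (edgeR adjusted p = 0.033) and by DESeq2 (adjusted p = 0.0362). With a block for replicate number within each day, Ush1c (edgeR adjusted p = 0.00841) and Myo1a (edgeR adjusted p = 0.018) passed beside Cdhr5 and Cdhr2. That makes 4 higher and 0 lower, and 11.1% of all genes passed (7.05% higher and 4.1% lower). This block also pairs the libraries of day 2, where same-numbered libraries did not deviate together as they did at day 4. DESeq2 called 3 of the 10 higher and 0 lower, where 5.1% of all genes passed (3.62% higher and 1.49% lower).

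The 2 protocadherin genes can also be set against each other inside a library, a ratio that needs no scaling between libraries. There were 1.56, 1.67, 1.54 and 1.55 counts of Cdhr5 per count of Cdhr2 in 4OHT day 2, against 1.45, 1.39, 1.33 and 1.29 in DMSO day 2. At day 4 the ratio was 1.45, 1.47, 1.44 and 1.33 in 4OHT and 1.11, 1.15, 1.13 and 1.13 in DMSO. On both days every 4OHT library had more Cdhr5 per Cdhr2 than any DMSO library of that day. The ratio was chosen after the values were seen and is given as a description, without a test.

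Counts of Ezr per count of Vil1 were 0.852 to 1.08 in 4OHT day 2 and 0.648 to 0.755 in DMSO day 2, and 0.715 to 0.887 in 4OHT day 4 and 0.661 to 0.686 in DMSO day 4. Here too the treatments did not overlap within a day. Counts of Myo1a per count of Myo7b were 1.88 to 2.37 in 4OHT day 2 and 1.95 to 2.31 in DMSO day 2, which overlap, and 1.91 to 2.26 in 4OHT day 4 and 1.52 to 1.73 in DMSO day 4, which do not. These ratios were likewise chosen after the values were seen.

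Between day 2 and day 4, Espn was the member with the largest difference in either treatment, and it was higher at day 4. In 4OHT organoids, Espn averaged 52.3 ± 5.71 CPM at day 4 and 27.4 ± 2.26 CPM at day 2 (log2 0.93 ± 0.08, edgeR adjusted p = 1.01e-05). In DMSO organoids it averaged 56.0 ± 9.32 CPM at day 4 and 34.1 ± 3.23 CPM at day 2 (log2 0.72 ± 0.11, edgeR adjusted p = 1.64e-04). All day 4 libraries lay above all day 2 libraries of the same treatment. Cell type markers moved over the same days: 6 of 6 stem cell markers were higher at day 4 in both treatments (median log2 1.44 in 4OHT and 1.35 in DMSO), as were 6 of 8 Paneth markers in both. Of 12 enterocyte markers, 8 were higher and 1 lower at day 4 in 4OHT, and 7 were higher and 3 lower in DMSO. Over all genes tested, 25.9% were higher and 23.5% lower at day 4 in 4OHT, and 28.7% higher and 24.8% lower in DMSO. The part of these markers in the changes of the 10 genes over time was not tested. Per count of Vil1 there were 0.0576 to 0.0788 counts of Espn in 4OHT day 4 and 0.0279 to 0.0315 in 4OHT day 2, and 0.0648 to 0.0956 in DMSO day 4 and 0.0328 to 0.0401 in DMSO day 2.

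Ezr and Vil1 were lower at day 4 in both treatments. Ezr averaged 598 ± 40.8 CPM in 4OHT day 4 and 868 ± 29.2 CPM in 4OHT day 2 (log2 -0.54 ± 0.06, edgeR adjusted p = 3.87e-05), and 475 ± 17.6 CPM in DMSO day 4 and 637 ± 36.8 CPM in DMSO day 2 (log2 -0.42 ± 0.06, edgeR adjusted p = 4.47e-05). Vil1 averaged 781 ± 39.9 CPM in 4OHT day 4 and 914 ± 71.8 CPM in 4OHT day 2 (log2 -0.23 ± 0.07, edgeR adjusted p = 0.0163), a call lost without 4OHT day 2 replicate 2 (edgeR adjusted p = 0.0505). In DMSO it averaged 708 ± 20.5 CPM at day 4 and 929.9 ± 27.0 CPM at day 2 (log2 -0.39 ± 0.05, edgeR adjusted p = 3.89e-05). In both genes and both treatments the days did not overlap.

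The protocadherin genes were lower at day 4 in DMSO organoids. Cdhr5 averaged 342 ± 15.2 CPM in DMSO day 4 and 487 ± 37.4 CPM in DMSO day 2 (log2 -0.50 ± 0.06, edgeR adjusted p = 2.17e-05). Cdhr2 averaged 303 ± 13.7 CPM in DMSO day 4 and 357 ± 13.2 CPM in DMSO day 2 (log2 -0.23 ± 0.05, edgeR adjusted p = 0.00163). In neither gene did the 2 days overlap. In 4OHT organoids the day difference did not pass, at log2 -0.04 ± 0.09 for Cdhr5 (edgeR adjusted p = 0.761) and 0.12 ± 0.07 for Cdhr2 (edgeR adjusted p = 0.185). Whether the day difference itself differed between 4OHT and DMSO is the interaction term given above, taken from the same 16 libraries.

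The remaining calls over time were small. In DMSO organoids Myo1a was lower at day 4 (log2 -0.21 ± 0.07, edgeR adjusted p = 0.0263), a call lost without DMSO day 2 replicate 2 or 3 or DMSO day 4 replicate 3 or 4 (edgeR adjusted p = 0.0531 to 0.0881). Myo7b was higher at day 4 in DMSO (log2 0.20 ± 0.07, edgeR adjusted p = 0.0272), a call lost without DMSO day 2 replicate 1, 3 or 4 or DMSO day 4 replicate 1 or 2 (edgeR adjusted p = 0.0537 to 0.0987) and in a fit over all 16 libraries (adjusted p = 0.0501). In 4OHT organoids Ush1c was higher at day 4 (log2 0.17 ± 0.06, edgeR adjusted p = 0.0332), a call lost without any 1 of 4OHT day 2 replicates 1, 3 and 4 and 4OHT day 4 replicates 1, 2 and 3 (edgeR adjusted p = 0.0509 to 0.111). Pls1 passed as lower in 4OHT without 4OHT day 4 replicate 4 (edgeR adjusted p = 0.0342) and by DESeq2 (adjusted p = 0.0305), and Ush1c as lower in DMSO without DMSO day 2 replicate 4 (edgeR adjusted p = 0.033). Eps8 did not pass in either treatment. In all, 2 genes were higher and 2 lower at day 4 in 4OHT, where 49.4% of all genes passed (25.9% higher and 23.5% lower). In DMSO 2 were higher and 5 lower, where 53.5% of all genes passed (28.7% higher and 24.8% lower). The median log2 difference of the 10 was 0.08 in 4OHT and -0.15 in DMSO, against 0.0131 in 4OHT and 0.0252 in DMSO for all genes tested. In 4OHT the days did not overlap for 4 of the 10, Espn, Eps8, Vil1 and Ezr, against 45.9% of all genes (23.6% above and 22.2% below). In DMSO they did not overlap for 6 of the 10, Espn, Myo7b, Cdhr2, Cdhr5, Vil1 and Ezr, against 48.4% of all genes (24.9% above and 23.5% below).

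**Figure D4:**
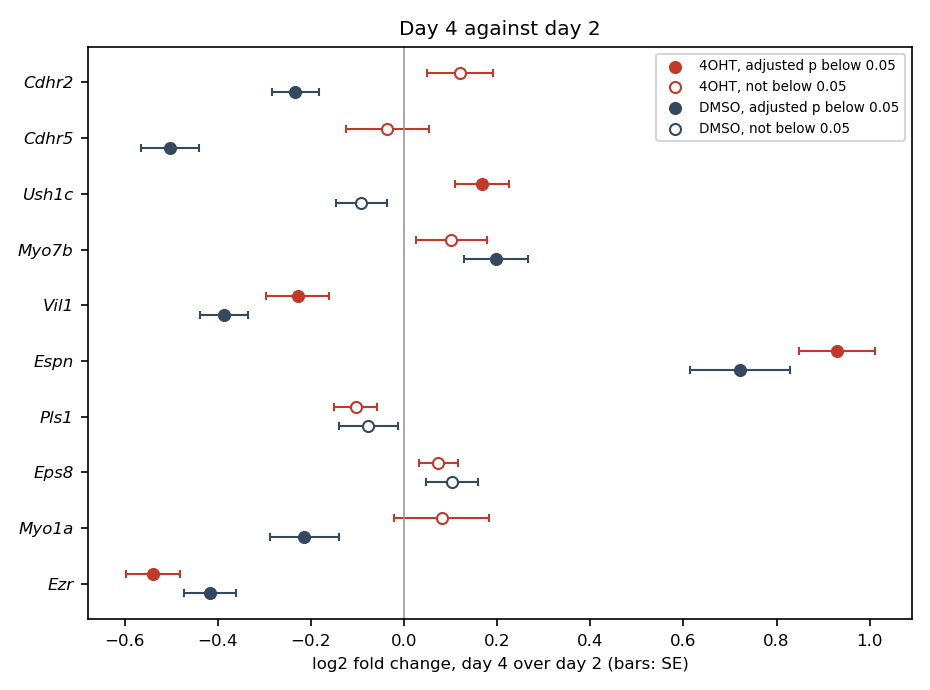
Log2 fold change of the 10 genes at day 4 over day 2 (horizontal axis) in 4OHT (red) and DMSO (dark) organoids, with bars for SE. Filled points have an edgeR adjusted p below 0.05; Espn lies highest and Ezr is below 0 in both treatments, while Cdhr5 and Cdhr2 are filled in DMSO alone.

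Among themselves, the 10 genes did not all vary together. With the group means removed, the deviations of the 16 libraries gave Pearson r above 0 for 24 of the 45 pairs of genes, with a median of 0.14. The highest was 0.89 for Cdhr2 and Cdhr5, followed by 0.88 for Vil1 and Myo1a, and the lowest was -0.69, for Cdhr5 and Ezr. In 4OHT day 2, for example, replicate 2 was the highest and replicate 4 the lowest library for both Cdhr2 and Cdhr5. The values share library and scaling, and are given without a test. The genes most like the mean pattern of the 10 over the 16 libraries, among 9680 with a mean log2 CPM of at least 3, were Crat (r = 0.92), Lypd8 (0.89), Ace (0.88), Tfg (0.88) and Papss2 (0.87).

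Around these 10, 67 other genes of microvilli and the apical cytoskeleton were counted in 5 lists, and more of them were higher than lower in 4OHT on both days. At day 2, 26 of the 64 tested were higher and 6 lower (median log2 0.11), and at day 4, 26 of 63 were higher and 3 lower (median log2 0.13). Of all genes tested, 16.9% were higher and 14.3% lower at day 2, and 13.7% were higher and 11.1% lower at day 4. The replicate block gave 39 higher and 5 lower at day 4, and called 22.8% of all genes higher and 22.2% lower. Goblet markers were higher and stem cell markers lower on the same days, as given above, and their part in these counts was not tested.

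Of 8 other genes of the adhesion complex and tip, 1 was higher and 2 lower at day 2, and 4 were higher and 0 lower at day 4. The shares over all genes tested were 16.9% higher and 14.3% lower at day 2, and 13.7% higher and 11.1% lower at day 4. Eps8l1, an EPS8 relative, was higher at day 2 (log2 0.61 ± 0.07, edgeR adjusted p = 5.53e-05) and at day 4 (log2 0.40 ± 0.11, edgeR adjusted p = 0.0187). Baiap2l2, which encodes a membrane-curving protein, was lower at day 2 (log2 -0.34 ± 0.08, edgeR adjusted p = 0.00682). At day 4 Eps8l2 (log2 0.23 ± 0.05, edgeR adjusted p = 0.00654) and Baiap2l1 (log2 0.21 ± 0.05, edgeR adjusted p = 0.00786) were higher. Eps8l3 measured log2 -0.13 ± 0.06 at day 2 (edgeR adjusted p = 0.12) and was higher at day 4 (log2 0.25 ± 0.07, edgeR adjusted p = 0.0346). At day 4 the Eps8l1 call was lost without 4OHT replicate 1 (edgeR adjusted p = 0.0508), and that of Eps8l3 without 4OHT replicate 1 or 2 or DMSO replicate 3 or 4 (edgeR adjusted p = 0.0716 to 0.0946).

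Among other actin and bundling genes, 6 of 11 were higher and 1 lower at day 2, where 16.9% of all genes tested were higher and 14.3% lower. At day 4, 5 of 10 were higher and 1 lower, where 13.7% of all genes tested were higher and 11.1% lower. Actb, for beta-actin, averaged 3900 ± 119.9 CPM in 4OHT day 2 and 2926 ± 55.9 CPM in DMSO day 2 (log2 0.43 ± 0.05, edgeR adjusted p = 4.03e-05). It averaged 2597 ± 239 CPM in 4OHT day 4 and 1964 ± 97.9 CPM in DMSO day 4 (log2 0.41 ± 0.07, edgeR adjusted p = 0.00316). Actg1, for the gamma-actin of the same filaments, gave log2 0.11 ± 0.05 at day 2 (edgeR adjusted p = 0.103) and 0.10 ± 0.08 at day 4 (edgeR adjusted p = 0.364). Both plastin relatives of Pls1 changed on both days, in opposite directions. Pls3 was higher in 4OHT at day 2 (log2 0.54 ± 0.06, edgeR adjusted p = 5.13e-05) and at day 4 (log2 0.17 ± 0.05, edgeR adjusted p = 0.033), where the call was lost without 4OHT replicate 1 or 4 or DMSO replicate 1, 2 or 3 (edgeR adjusted p = 0.0647 to 0.0836). Lcp1 was lower at day 2 (log2 -0.32 ± 0.05, edgeR adjusted p = 3.52e-04) and at day 4 (log2 -0.49 ± 0.07, edgeR adjusted p = 9.74e-04).

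Of 18 other genes that link membrane and cytoskeleton, 16 were tested on each day, and Rdx and Msn were not among them. On each day 8 of the 16 were higher and 2 lower. Over all genes tested, 16.9% were higher and 14.3% lower at day 2, and 13.7% higher and 11.1% lower at day 4. Stk10, a kinase known to phosphorylate ezrin, was higher at day 2 (log2 0.64 ± 0.06, edgeR adjusted p = 6.53e-06) and at day 4 (log2 0.47 ± 0.07, edgeR adjusted p = 0.00135). Myo1c, a class 1 myosin, was also higher at day 2 (log2 0.78 ± 0.07, edgeR adjusted p = 5.07e-06) and at day 4 (log2 0.55 ± 0.08, edgeR adjusted p = 9.30e-04). Slc9a3r1, which encodes an ezrin-binding scaffold, averaged 439 ± 22.9 CPM in 4OHT day 2 and 425 ± 10.2 CPM in DMSO day 2 (log2 0.06 ± 0.05, edgeR adjusted p = 0.387). At day 4 it averaged 332 ± 15.8 CPM in 4OHT and 265 ± 7.65 CPM in DMSO (log2 0.33 ± 0.05, edgeR adjusted p = 9.01e-04). Podxl, for the surface sialomucin podocalyxin, was lower at day 2 (log2 -0.78 ± 0.08, edgeR adjusted p = 2.15e-05) and at day 4 (log2 -1.11 ± 0.12, edgeR adjusted p = 2.60e-04). Clic4, for an intracellular chloride channel protein, was higher at day 2 (log2 0.31 ± 0.08, edgeR adjusted p = 0.00924) and lower at day 4 (log2 -0.31 ± 0.07, edgeR adjusted p = 0.00654).

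In the terminal web, the filament layer in which microvilli are rooted, 8 of 15 genes were higher and 0 lower at day 2, and 7 of 15 were higher and 0 lower at day 4. The median log2 fold change of the 15 was 0.23 at day 2 and 0.14 at day 4. Over all genes tested, 16.9% were higher and 14.3% lower at day 2, and 13.7% higher and 11.1% lower at day 4. The keratin gene Krt8 was higher on both days (log2 0.32 ± 0.05, edgeR adjusted p = 9.00e-04 at day 2, and log2 0.48 ± 0.08, edgeR adjusted p = 0.00201 at day 4). Krt20 was higher at day 4 (log2 0.43 ± 0.06, edgeR adjusted p = 7.90e-04). Of these 15 genes, 13 were lower and 0 higher at day 4 against day 2 in 4OHT, where 23.5% of all genes were lower and 25.9% higher. In DMSO 9 were lower and 0 higher, where 24.8% of all genes were lower and 28.7% higher. With the block, 11 of the 15 were higher and 0 lower in 4OHT at day 4, where it called 22.8% of all genes higher and 22.2% lower.

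Of 14 genes of apical membrane traffic, 3 were higher and 1 lower at day 2, where 16.9% of all genes tested were higher and 14.3% lower. At day 4, 2 of the 14 were higher and 0 lower, where 13.7% of all genes tested were higher and 11.1% lower. Rab11a, a small GTPase of recycling endosomes, was higher at day 2 (log2 0.29 ± 0.04, edgeR adjusted p = 2.71e-04), and so was its motor partner Myo5b (log2 0.19 ± 0.04, edgeR adjusted p = 0.00821). At day 4 the fusion genes Stxbp2 (log2 0.20 ± 0.04, edgeR adjusted p = 0.00497) and Vamp8 (log2 0.26 ± 0.05, edgeR adjusted p = 0.00501) were higher. With the block the list had 8 higher and 1 lower at day 4, where 22.8% of all genes were higher and 22.2% lower.

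**Figure D5:**
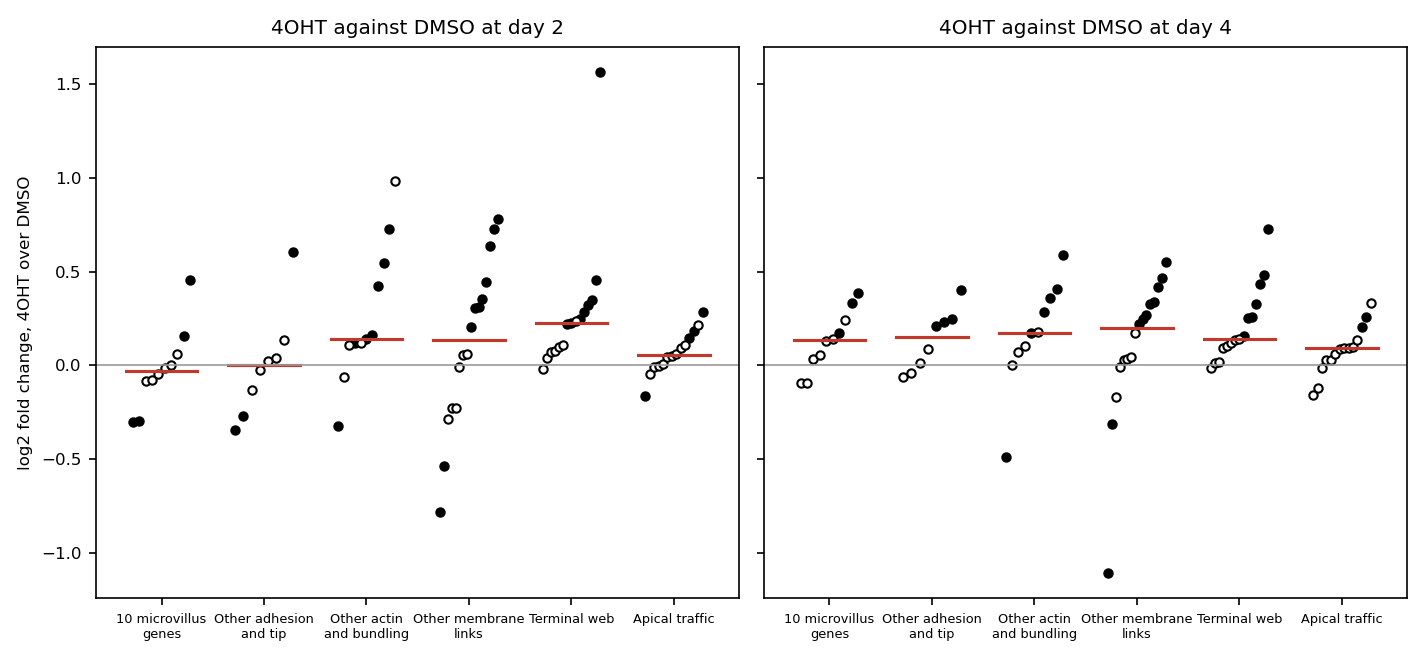
Log2 fold change in 4OHT over DMSO (vertical axis) at day 2 (left) and day 4 (right) for the 10 genes and for 5 lists of other microvillus and apical genes, each point a gene and each red line a median. Filled points have an edgeR adjusted p below 0.05; in the terminal web list 8 points are filled at day 2 and 7 at day 4, each above 0.

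By the interaction term, 1 of the 64 listed genes tested was higher at day 4 than at day 2 in its 4OHT difference, Slc9a3r1 (log2 0.28 ± 0.07, edgeR adjusted p = 0.0426), and 3 were lower, among them Clic4 (log2 -0.62 ± 0.11, edgeR adjusted p = 0.00948) and Pls3 (log2 -0.36 ± 0.09, edgeR adjusted p = 0.0368). Of all genes, 1.2% were higher and 0.476% lower by this term. Leaving out 1 library ended the Slc9a3r1 call in 12 of 16 fits (edgeR adjusted p up to 0.109); it held without 4OHT day 2 replicate 2, 4OHT day 4 replicate 1 or 4, or DMSO day 2 replicate 4. The Pls3 call ended in 10 of 16 fits (edgeR adjusted p up to 0.0997) and held without 4OHT day 2 replicate 1 or 2, 4OHT day 4 replicate 1, 2 or 4, or DMSO day 2 replicate 4. Over time, 11 of 64 were higher and 33 lower at day 4 in 4OHT, where 25.9% of all genes were higher and 23.5% lower. In DMSO 10 of 63 were higher and 31 lower, where 28.7% of all genes were higher and 24.8% lower. Pdzk1, a scaffold for apical transporters, was higher at day 4 in both 4OHT (log2 2.14 ± 0.12, edgeR adjusted p = 1.25e-06) and DMSO (log2 1.61 ± 0.09, edgeR adjusted p = 3.75e-08). Slc9a3r1 was lower at day 4 in both 4OHT (log2 -0.40 ± 0.06, edgeR adjusted p = 1.79e-04) and DMSO (log2 -0.68 ± 0.05, edgeR adjusted p = 1.34e-07), and so was Actb (log2 -0.59 ± 0.07, edgeR adjusted p = 6.81e-05 in 4OHT, and log2 -0.57 ± 0.06, edgeR adjusted p = 3.63e-06 in DMSO).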

How the data were processed

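RNA-seq counts per gene were deposited by the authors in 1 table for day 2 and 1 for day 4. Per the submitters' processing notes, STAR 2.4.0f1, bcl2fastq 1.8.4 and GRCm38 were used. How reads were counted, with which annotation and strand, is not given in the sources used here. A further 16 normalized per-sample columns were not used. Tables were joined by gene ID, and 14 day 4 symbols rewritten as dates were replaced through it; for Myh14, listed under 2 IDs, the one with more counts was used.

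Calls come from edgeR 4.0.16 with limma 3.58.1 in R 4.3.3, by the quasi-likelihood test with TMM scaling and filterByExpr, fitted on all genes with Benjamini-Hochberg adjustment at 0.05. SE is the log2 fold change over the root of F. Each comparison of 2 groups used its 8 libraries, and the interaction used all 16. The script was tested on simulated data with 200 changed genes, drawn from all genes that passed the filter. Changes of 1.25-fold were recovered in 58% of cases at day 2 and 38% at day 4. Over time the share was 34% in 4OHT and 42% in DMSO, and for the interaction it was 12%. A value that did not pass is thus not shown to be unchanged. Alternatives were DESeq2 1.42.0, its size factors, other filters, a fit over 16 libraries, a replicate block and leaving out each library.

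The labels do not say what a replicate number marks. Deviations of same-numbered libraries had r = 0.63 to 0.81 between treatments at day 4 and -0.11 to 0.47 at day 2. The numbers were thus read as pairing libraries at day 4 and not at day 2. The calls nonetheless use no block on either day. The block was run as an alternative for every comparison, day 2 included. No 2 libraries agreed within counting noise (chi-square per gene at least 7.4 over 24 pairs within groups).

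The 10 genes and the lists were chosen with earlier results of these data known. Of each further list, 2 genes by lowest p and 2 by highest mean CPM could be named per comparison; their values in the other comparisons were added after they were seen.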

Additional observations from a re-analysis of the deposited data

Results flagged for a closer look

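Of 40 groups of 4 libraries (10 genes in 4 groups), 2 held a library far from the other 3 by Dixon's criterion, which chance gives in about 1 of 20 groups. Pls1 stood at 341 CPM in 4OHT day 2 replicate 2, above 323 to 326 CPM in the other 3. Vil1 stood at 678 CPM in DMSO day 4 replicate 3, below 716 to 721 CPM in the other 3.

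For 2 genes the 4OHT difference was not the same on both days by the interaction term. It was higher at day 4 than at day 2 by log2 0.36 for Cdhr2 (edgeR adjusted p = 0.0438) and by log2 0.47 for Cdhr5 (edgeR adjusted p = 0.0402). Both calls are fragile: of 16 fits without 1 library, 12 lost the Cdhr2 call and 11 the Cdhr5 call. For Cdhr2 the groups were apart at day 2 and overlapped at day 4, and for Cdhr5 they overlapped at day 2 and were apart at day 4.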

How the results depend on the processing

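Libraries held 63791712 counts or more, and the 10 genes at least 1586 counts each. Ezr on both days, Cdhr2 and Espn at day 2 and Cdhr5 at day 4 were called under every alternative run. Over time, so were Espn and Ezr in both treatments and Cdhr2, Cdhr5 and Vil1 in DMSO. For 2 higher at day 2, no filter on low counts gave 1. For 3 higher at day 4, DESeq2 gave 6. For 2 higher over time in DMSO, the fit over 16 libraries gave 1. For the interaction, with 2 of the 10 and 199 higher and 79 lower of all genes, DESeq2 size factors gave 1 of the 10, and DESeq2 gave 600 higher and 247 lower of all genes.

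Leaving out 1 library, the 10 had 1 to 2 higher at day 2, 2 to 5 higher at day 4, 1 to 2 higher and 1 to 3 lower over time in 4OHT, 1 to 2 higher and 4 to 6 lower over time in DMSO, and 0 to 3 higher by the interaction, where all genes had 66 to 502 higher and 28 to 225 lower.

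With the replicate block, day 4 had 6 higher and 1 lower of the 10 and 3651 higher and 3565 lower of all genes, and the interaction had 4 higher of the 10 and 1170 higher and 680 lower of all genes. The cause of these shifts was not tested.

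Signs changed only for values that passed under no alternative run. Myo7b at day 2 (log2 0.00371) was -0.000739 by DESeq2, -0.000664 with its size factors, -0.0096 with no filter, -0.00587 with at least 1 CPM in 4 libraries and -0.00364 over 16 libraries, and -0.0221 to 0.0267 leaving out 1 library. Leaving out 1 library also gave -0.0615 to 0.0224 for Vil1 and -0.118 to 0.00776 for Myo1a at day 2, -0.104 to 0.0452 for Cdhr5 over time in 4OHT, and -0.0746 to 0.0144 for Pls1 and -0.0623 to 0.0182 for Eps8 in the interaction.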
